A study of Saccharomyces cerevisiae with 6 samples.

Results

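Rap1 peaks were examined at 34 chaperone and heat shock protein genes of Saccharomyces cerevisiae, out of 6002 protein-coding genes in the R64 gene table. The 34 genes were taken from a list of names chosen with earlier results of these data known, and every name matched the table. A peak was counted for a gene when its summit lay in the coding span or up to 1000 bp before the coding start. All 6 samples came from strain UKY403, in which histone H4 is made only in galactose, grown in galactose, moved to dextrose and crosslinked after 0, 2 or 4 h, with 2 biological replicates per time. Rap1 was precipitated with a Rap1 antibody, and the values are 1 peak list per time point, so no spread between replicates and no test between time points can be given. Time in dextrose, the change of carbon source and the loss of H4 run together in these groups and cannot be told apart here; the isogenic control strain was not analysed here.

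Chaperones help other proteins fold, keep them soluble and pull aggregates apart. Hsp70 proteins bind exposed stretches of their clients with the help of J proteins and nucleotide exchange factors, Hsp90 finishes the folding of kinases and receptors, and Hsp104 extracts proteins from aggregates. Many of these genes are driven by the heat shock factor Hsf1, and others by the stress factors Msn2 and Msn4. Rap1 is a general regulatory factor best known at ribosomal protein genes, glycolytic genes and telomeres, and nucleosomes limit which of its sites it can reach.

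At 0 h Rap1 summits were listed before more chaperone genes than inside them. After the move to dextrose the genes with a coding summit were as many as those with an upstream summit at 2 h and more at 4 h, but fewer at both times when only peaks of fold enrichment 3 or more, or lists of equal length, were counted. A coding summit was listed in 3 of the 34 genes at 0 h, 15 at 2 h and 22 at 4 h. These are 8.82%, 44.1% and 64.7% of the chaperone genes, against 4.13%, 21.0% and 37.1% of all 6002 genes. An upstream summit was listed at 11, 15 and 16 of the 34 genes, or 32.4%, 44.1% and 47.1%, against 21.7%, 28.2% and 37.6% of all genes. CDC37, HSP10, SSB2, SSE2, STI1 and ZUO1 had a summit in neither place at any time. These shares are descriptions over genes of 3 lists, with no test.

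**Figure D1:**
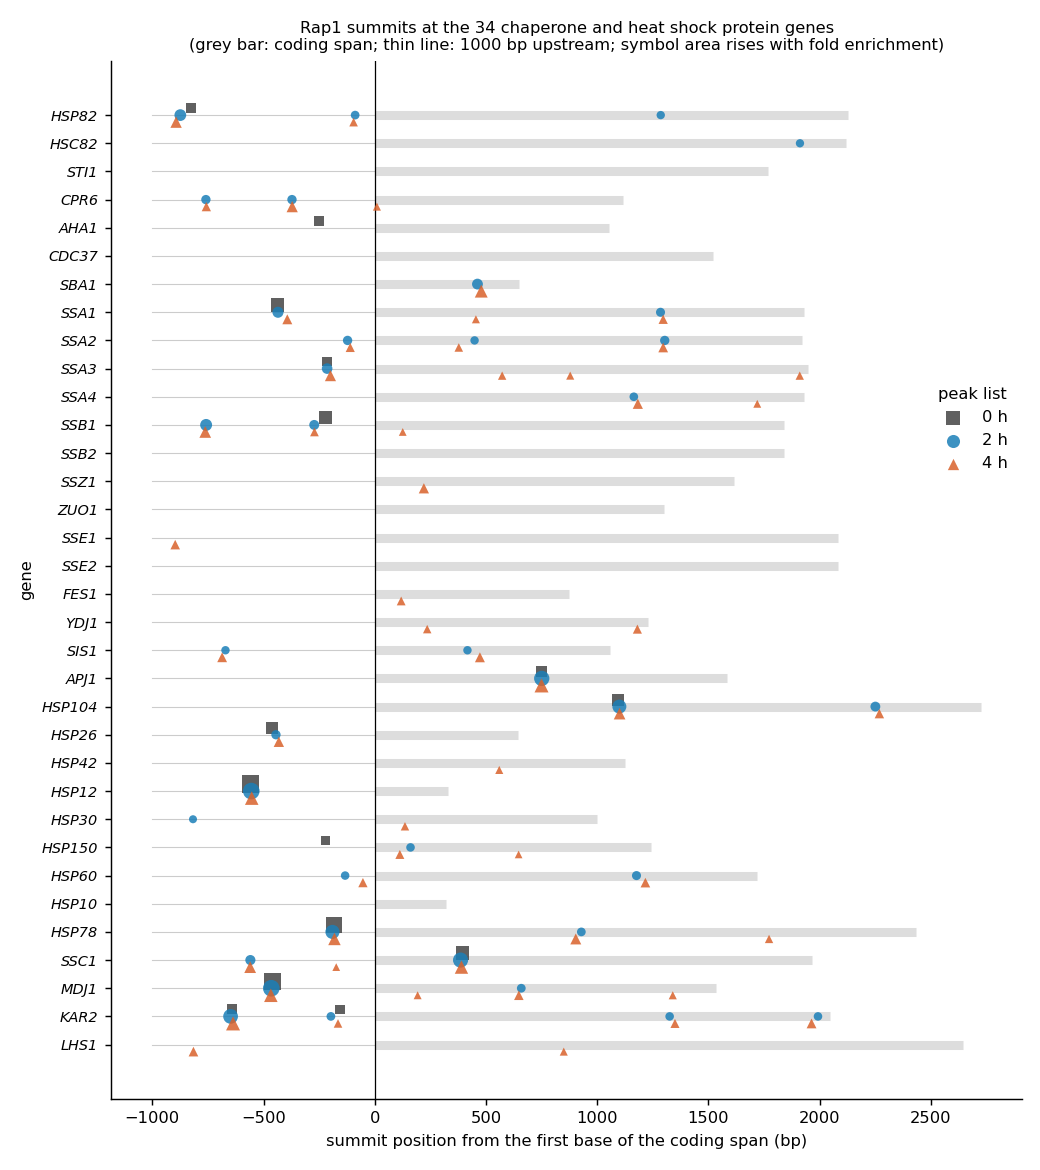
Each symbol is 1 Rap1 summit, placed by its distance in bp from the first base of the coding span (horizontal axis) for each of the 34 genes (vertical axis), with squares for 0 h, circles for 2 h and triangles for 4 h. At 0 h the coding spans hold summits only in APJ1, HSP104 and SSC1, whereas 22 genes have a coding summit at 4 h.

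The chaperone genes are longer than most, and length bears on how many summits a coding span can hold. Their median coding length was 1668 bp, against 1200 bp for all genes, and 21 of them had 1500 bp or more. Among these 21, 12 had a coding summit at 2 h (57.1%, against 29.6% of all genes of that length) and 14 at 4 h (66.7%, against 52.0%). Among the 13 shorter genes, 3 had a coding summit at 2 h (23.1%, against 15.8%) and 8 at 4 h (61.5%, against 28.2%). Per kb of coding span the chaperone genes held 0.337 summits at 2 h and 0.637 at 4 h, and all genes held 0.165 and 0.337.

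Most of the new peaks inside these genes were weak. A later peak is called new when it shares no base with a 0 h peak; 13 genes had a new coding peak at 2 h and 20 at 4 h (38.2% and 58.8%, against 17.5% and 34.2% of all genes). Fold enrichment, the authors' own value per peak, is the summit height over the local background of the same library, and is read here within a list. The median fold enrichment of the new coding peaks was 2.48 at 2 h and 2.41 at 4 h, against 2.92 and 2.76 for new coding peaks of all genes. Of the 15 new coding peaks in chaperone genes at 2 h, 2 (13.3%) lay above the median fold enrichment of their list (3.51), against 32.2% of the new coding peaks of all genes. Of the 31 at 4 h, 10 (32.3%) lay above theirs (3.09), against 40.7%. With only peaks of fold enrichment 3 or more, the genes with a coding summit numbered 5 at 2 h (14.7%, against 12.1% of all genes) and 13 at 4 h (38.2%, against 21.0%). When each list was cut to its 1212 peaks of highest -log10 q, the length of the 0 h list, they numbered 4 at 2 h (11.8%, against 9.46%) and 5 at 4 h (14.7%, against 11.0%). At fold enrichment 3 or more, 8.82% of the chaperone genes had a new coding peak at 2 h (against 8.93%) and 32.4% at 4 h (against 17.8%). In the cut lists 5.88% had one at both times, against 6.30% and 8.03%. The 2 h shares of the chaperone genes thus stood above those of all genes mainly through peaks of low fold enrichment. At 4 h the share with new peaks stayed above that of all genes at fold enrichment 3 or more, but not in the cut lists.

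**Figure D2:**
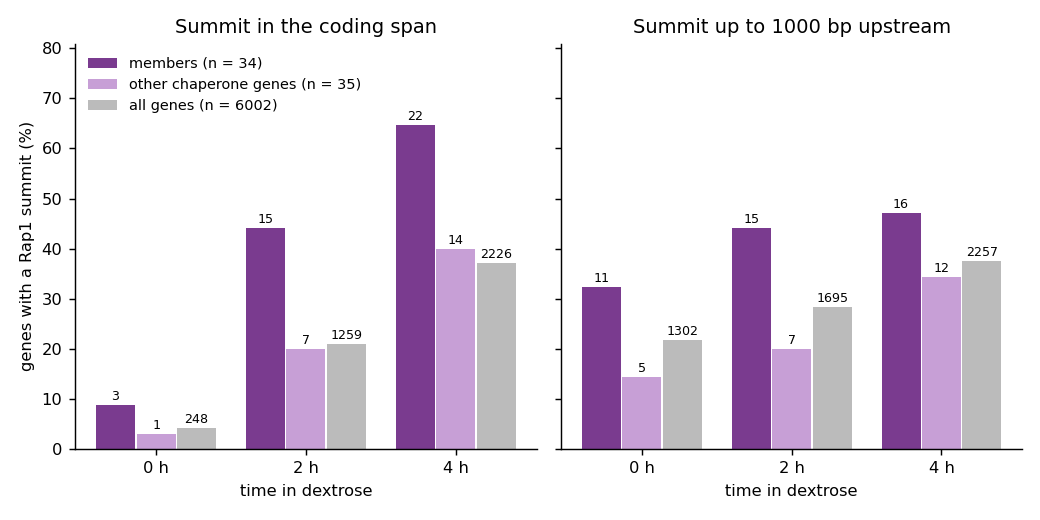
Bars give the percentage of genes with a Rap1 summit in the coding span (left) or up to 1000 bp upstream (right) at 0, 2 and 4 h, for the 34 genes described here (members), 35 other chaperone genes and regulators, and all 6002 genes; the numbers above the bars count genes. The coding share of the 34 genes is 8.82, 44.1 and 64.7%, and that of all genes 4.13, 21.0 and 37.1%.

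The 3 genes with a coding summit before the move to dextrose held the coding peaks of highest fold enrichment among the 34 genes at 2 h. APJ1, which encodes a J protein of the cytosol and nucleus, lies on chromosome XIV, and its 0 h peak spans 482009 to 482279 (build sacCer3, as all coordinates here). Its summit lay 749 to 751 bp after the coding start in all lists, with heights of 69, 219 and 267 tags and fold enrichments of 5.38, 10.6 and 8.69 at 0, 2 and 4 h. SSC1, the Hsp70 of the mitochondrial matrix, had its summit 386 to 395 bp after the start, in a peak on chromosome X from 521048 to 521378 at 0 h, with heights of 106, 221 and 248 tags and fold enrichments of 8.35, 10.4 and 7.79. HSP104, the disaggregase, had its summit 1095 to 1101 bp after the start, in a peak on chromosome XII from 89578 to 89861 at 0 h, with heights of 97, 262 and 282 tags and fold enrichments of 6.01, 8.64 and 5.63. HSP104 also gained a peak near its end, 2251 bp after the start at 2 h (fold enrichment 3.65) and 2269 bp at 4 h (3.22). Heights near 292 tags, the highest value of every list, are capped by the removal of duplicate tags, so the later values of these sites may be compressed. The genome-wide background was 11.8, 17.8 and 27.9 tags at 0, 2 and 4 h. The same limit thus bounds fold enrichment more tightly in the later lists, here and at other high sites.

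Of the 7 genes for Hsp90 and its co-chaperones, 0, 3 and 2 had a coding summit at 0, 2 and 4 h, when 4.13%, 21.0% and 37.1% of all genes had one, and 2 had an upstream summit at each time (21.7%, 28.2% and 37.6% of all genes). HSP82, the stress-inducible Hsp90, had a coding peak at 2 h with its summit 1286 bp after the start (41 tags, fold enrichment 2.23), and HSC82, its constitutive copy, had one 1912 bp after the start (40 tags, 2.18); at 4 h no summit was listed inside either gene. Tags that match both copies of such a near-identical pair are uncertain, since their placing is not stated in the labels or headers. SBA1, the p23 co-chaperone, had a new peak on chromosome XI from 220590 to 220964 at 4 h. Its fold enrichment was 4.68 at 2 h (87 tags) and 7.19 at 4 h (207 tags), the highest of the new coding peaks in these genes at each time. CPR6, a peptidyl-prolyl isomerase that binds Hsp90, had a summit only 10 bp after its start at 4 h (1.96). It also had upstream summits 371 to 372 bp before the start, inside the neighbouring gene COA4, at 2 h (3.14) and 4 h (5.15), and others 757 to 759 bp before the start (3.14 and 3.07), which lie 50 to 52 bp before COA4. AHA1, the activator of Hsp90 ATPase, had an upstream peak 250 bp before its start at 0 h only (43 tags, 3.44). HSP82 had an upstream summit 826 bp before its start at 0 h (3.67) that lay 33 bp before the divergent gene YAR1. The overlapping peaks of 2 h (5.74) and 4 h (5.29) had their summits inside YAR1, and a separate weak summit lay 88 bp before HSP82 at 2 h (2.55) and 95 bp before it at 4 h (2.46).

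**Figure D3:**
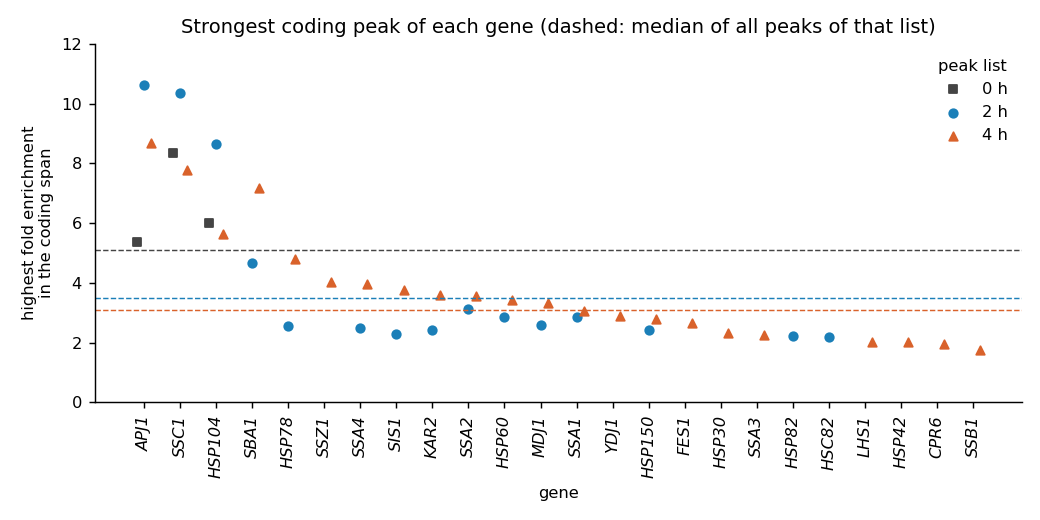
Points give the highest fold enrichment of a coding peak for each of the 24 genes with a coding summit at any time (horizontal axis), by list, and dashed lines mark the median fold enrichment of all peaks of that list (5.11, 3.51 and 3.09 at 0, 2 and 4 h). APJ1, SSC1 and HSP104 hold the highest values at 2 h, and SBA1 reaches 7.19 at 4 h, while most other genes lie near or under the dashed lines.

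All 4 cytosolic Hsp70 genes of the SSA family had coding summits at 4 h, and none at 0 h; each is longer than 1500 bp, and of all genes of that length 52.0% had one at 4 h and 4.14% at 0 h. SSA1 and SSA2 encode near-identical constitutive proteins, and both had a summit 1297 bp after the start at 4 h, with heights of 98 and 113 tags and fold enrichments of 3.06 and 3.55. At 2 h the corresponding summits lay 1285 and 1304 bp after the start, with 60 and 61 tags (2.85 and 3.11). A second coding summit lay in SSA2 449 bp after the start at 2 h (2.29) and 378 bp at 4 h (2.41), and in SSA1 455 bp after the start at 4 h (1.97). Tags were 35 bp long and may match both copies, so the coding peaks of SSA1 and SSA2 cannot be assigned to either gene with certainty. SSA4, which is induced by heat, had its stronger summit 1165 bp after the start at 2 h (52 tags, 2.48) and 1183 bp at 4 h (118 tags, 3.97), and a weaker one at 1720 bp at 4 h (1.85). SSA3, induced as glucose runs out, had 3 coding summits at 4 h, 573, 879 and 1911 bp after the start, all weak (2.24, 2.01 and 2.23).

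The upstream peaks of the SSA genes differed from gene to gene. SSA1 had 1 at all times, 437 bp before its start at 0 h, with heights of 132, 101 and 113 tags and fold enrichments of 8.42, 4.93 and 3.74. This summit lies 306 bp before EFB1, the divergent gene for a translation elongation factor subunit, which is nearer than SSA1. SSA3 had an upstream summit 199 to 214 bp before its start, with 57, 116 and 198 tags and fold enrichments of 3.39, 4.42 and 5.00. SSA2 had a new upstream peak 122 bp before its start at 2 h (3.15) and 110 bp at 4 h (2.95). No summit was listed within 1000 bp before SSA4.

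**Figure D4:**
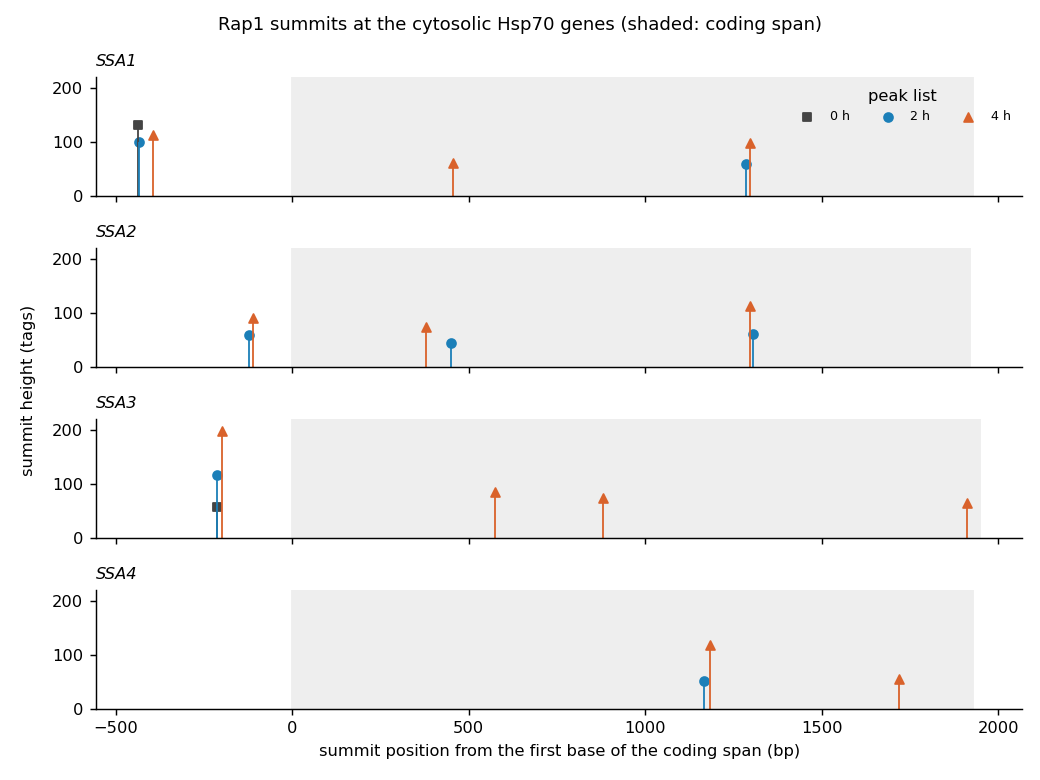
Stems give the summit height in tags (vertical axis) against the distance in bp from the first base of the coding span (horizontal axis) for SSA1, SSA2, SSA3 and SSA4, by list; heights are not scaled for depth. SSA1 and SSA2 share a 4 h summit position of 1297 bp, and only SSA1 and SSA3 have an upstream peak at 0 h.

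Of the 4 genes for ribosome-associated chaperones, which meet nascent chains as they leave the ribosome, 0, 0 and 2 had a coding summit at 0, 2 and 4 h, beside 4.13%, 21.0% and 37.1% of all genes. SSB1, a ribosome-bound Hsp70, had an upstream peak at all times, 221 bp before the start at 0 h and 271 to 272 bp later, with heights of 91, 69 and 73 tags and fold enrichments of 7.18, 3.72 and 2.56. A new and stronger peak lay 758 to 762 bp before SSB1, inside the coding span of PTP1, at 2 h (111 tags, 5.95) and 4 h (163 tags, 5.67). The coding summit of SSB1 at 4 h was weak (1.76), and its near-identical copy SSB2 had no summit listed in either place; tags shared by this pair are likewise uncertain. SSZ1, an Hsp70 of the ribosome-associated complex, had a coding summit 221 bp after the start at 4 h (116 tags, 4.04), and its partner ZUO1 had none. Among the exchange factors of Hsp70, FES1 had a coding summit at 4 h (2.66), SSE1 had only an upstream summit inside SYH1 at 4 h (3.35), and its copy SSE2 had none.

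The J proteins followed different courses. Beside APJ1, SIS1, an essential partner of Hsp70, had a new coding summit 417 bp after the start at 2 h (42 tags, 2.29) and 473 bp at 4 h (108 tags, 3.77), and upstream summits inside LST8 (2.29 and 3.59). YDJ1, the major cytosolic J protein, had 2 coding summits at 4 h only, 236 and 1181 bp after the start (2.31 and 2.90).

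Of the 5 mitochondrial chaperone genes, 4 had a coding summit and 4 an upstream summit at both 2 and 4 h. At these times 21.0% and 37.1% of all genes had a coding and 28.2% and 37.6% an upstream summit. Each of the 4 with a coding summit is longer than 1500 bp. Of all genes of 1500 bp or more, 29.6% had a coding summit at 2 h and 52.0% at 4 h. HSP78, the mitochondrial relative of Hsp104, had a strong upstream peak at all times, 181 to 190 bp before the start on chromosome IV, from 974248 to 974648 at 0 h. Its heights were 231, 255 and 273 tags and its fold enrichments 11.0, 8.88 and 6.61. Inside HSP78 a new summit lay 929 bp after the start at 2 h (76 tags, 2.56) and 904 bp at 4 h (213 tags, 4.81), and a weaker one at 1773 bp at 4 h (2.23). MDJ1, the J protein of the matrix, had a new coding summit 659 bp after the start at 2 h (2.59) and 3 of them at 4 h, the highest at 648 bp (3.32). HSP60, the chaperonin, had a new coding summit 1177 bp after the start at 2 h (2.87) and 1217 bp at 4 h (3.42), with weaker peaks 133 and 53 bp before the start (2.39 and 3.07). SSC1 gained an upstream peak at 2 h (3.92) and 4 h (5.77) whose summit lay inside TAH11, and a weak one 173 bp before its start at 4 h (1.72). HSP10, the co-chaperonin, had none within 1000 bp, but a summit 1156 to 1172 bp before its start lay just outside the window in every list, with fold enrichments of 2.50, 8.40 and 8.22; the farthest summits just inside it were those of SSE1 (897 bp) and HSP82 (893 bp) at 4 h.

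The peak of highest fold enrichment among all 34 genes at 0 and 2 h lay between MDJ1 and HSP12, a divergent pair on chromosome VI, and counts for both genes. HSP12 encodes a small membrane-associated protein made in stress and as glucose runs out. The peak spans 106424 to 106999 at 0 h, with its summit 461 bp before MDJ1 and 559 bp before HSP12, inside the small reading frame YFL015C. Heights were 235, 286 and 281 tags and fold enrichments 14.0, 12.8 and 8.03, which ranked 172 of 1212, 58 of 2438 and 190 of 4073 peaks. HSP12 itself, 330 bp long, had no coding summit. HSP26, a small heat shock protein, likewise had an upstream peak and no coding summit, 431 to 460 bp before the start, with 75, 61 and 154 tags and fold enrichments of 5.93, 3.09 and 4.15. HSP42, the other small heat shock protein, had a weak coding summit at 4 h (2.00).

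HSP150, a cell wall glycoprotein, had an upstream summit 223 bp before the start at 0 h only (37 tags, 2.76), and new coding summits 161 bp after the start at 2 h (2.43) and 113 and 647 bp at 4 h (2.80 and 1.69). HSP30, a plasma membrane protein, had weak peaks, upstream at 2 h (1.97), where the summit lay 159 bp before the neighbouring frame YCR022C and so nearer to it, and coding at 4 h (2.31). In the endoplasmic reticulum, KAR2, the Hsp70 of the lumen, had new coding summits 1326 and 1993 bp after the start at 2 h (2.42 and 2.41) and 1350 and 1964 bp at 4 h (2.87 and 3.60). Upstream of KAR2 a summit 637 to 648 bp before the start lay inside TAD2 at all times, with heights of 51, 187 and 280 tags and fold enrichments of 4.06, 9.79 and 8.70. A weaker summit, 157 to 197 bp before KAR2, lay between KAR2 and TAD2 (3.44, 2.58 and 2.43). LHS1, an exchange factor for Kar2, had a coding summit (2.00) and an upstream summit inside MUD2 (3.45) at 4 h.

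Several upstream summits thus lay inside a neighbouring gene. Of the upstream summits 3 of 12 were in another coding span at 0 h, 8 of 19 at 2 h and 10 of 21 at 4 h, the peak between MDJ1 and HSP12 being counted for each gene. The same count over the upstream summits of all genes is not given here. When such summits were left out, 9, 11 and 11 of the 34 genes had an upstream summit. Their share went from 32.4%, 44.1% and 47.1% to 26.5%, 32.4% and 32.4%. Over all genes it went from 21.7%, 28.2% and 37.6% to 19.5%, 20.0% and 22.2%, so the loss was not particular to the 34 genes.

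**Figure D5:**
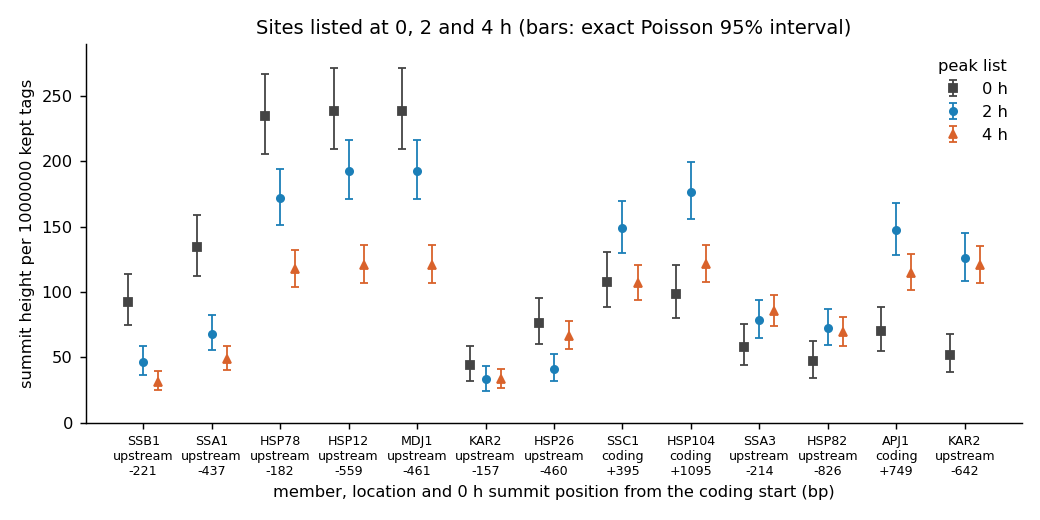
Points give the summit height per 1000000 kept tags (vertical axis) at the 13 sites listed at 0, 2 and 4 h, with exact Poisson 95% intervals, ordered by the ratio of 4 h to 0 h; the MDJ1 and HSP12 entries are the same peak. Upstream sites of SSB1, SSA1, HSP78 and HSP12 stand lower at 4 h than at 0 h. The coding site of APJ1 and the upstream KAR2 site inside TAD2 stand higher.

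At 12 distinct sites a peak was listed at all 3 times, 9 upstream and 3 coding, with summits that moved by a median of 13 bp and at most 67 bp. To set the lists side by side, heights were given per 1000000 tags kept after duplicates were removed (983197, 1483679 and 2327099 tags), called scaled tags; exact Poisson 95% intervals cover counting error only. The upstream site of SSA1 had 134 scaled tags at 0 h (112 to 159), 68.1 at 2 h (55.4 to 82.7) and 48.6 at 4 h (40.0 to 58.4). That of SSB1 had 92.6 (74.5 to 114), 46.5 (36.2 to 58.9) and 31.4 (24.6 to 39.4). At both sites every later interval lay below that of 0 h, and the raw heights were also lower although more tags were kept. HSP78 had 235, 172 and 117 scaled tags upstream, and the MDJ1 and HSP12 site 239, 193 and 121. Both sites are near the height limit, which stays the same while depth grows. Its part in these falls was not tested.

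Other constant sites went the other way. The coding site of APJ1 had 70.2 scaled tags at 0 h (54.6 to 88.8), 148 at 2 h (129 to 169) and 115 at 4 h (101 to 129). The site upstream of KAR2 and inside TAD2 had 51.9 (38.6 to 68.2), 126 (109 to 145) and 120 (107 to 135). At both sites the 2 h and 4 h intervals lay above that of 0 h. At HSP104 the 2 h interval (156 to 199) lay above that of 0 h (80.0 to 120) and the 4 h interval (107 to 136) overlapped it. SSC1, HSP82, SSA3 and the weaker site 157 bp before KAR2 had intervals at 2 and 4 h that overlapped those of 0 h. HSP26 lay lower at 2 h (41.1, 31.4 to 52.8) than at 0 h (76.3, 60.0 to 95.6), and its 4 h interval (56.1 to 77.5) overlapped that of 0 h. Over all 1007 peaks of the series that overlapped a peak in both later lists, the median ratio to 0 h was 0.768 at 2 h and 0.601 at 4 h. It was 1.09 and 1.03 among the 213 with a coding summit at 0 h, and 0.732 and 0.542 among the 794 without. The height limit, the same in every list, can lower such ratios at high sites as depth grows. Its part in these medians was not tested. At 4 h, 32.9% of the 213 had an interval above that of 0 h and 34.3% one below it. Of the 794 others, 4.03% lay above and 65.1% below. The median ratio near 1 at coding sites thus combined rises and falls.

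A further 35 genes of the same pathways were taken from a list of other chaperones and regulators, also chosen with earlier results known. A coding summit was listed in 1 of them at 0 h, 7 at 2 h and 14 at 4 h. These are 2.86%, 20.0% and 40.0%, close to the shares of all genes when length is left aside. Of the 18 with 1500 bp or more, 4 had one at 2 h (22.2%, against 29.6% of all genes of that length) and 8 at 4 h (44.4%, against 52.0%). Of the 17 shorter ones, 3 had one at 2 h (17.6%, against 15.8%) and 6 at 4 h (35.3%, against 28.2%). An upstream summit was listed at 5, 7 and 12 of them, or 14.3%, 20.0% and 34.3%, below the 21.7%, 28.2% and 37.6% of all genes. HSF1, the heat shock factor gene, had an upstream peak at all times, 228 to 230 bp before its start, with heights of 200, 232 and 235 tags and fold enrichments of 6.91, 6.64 and 5.53. MSN4 had one 704 to 707 bp before its start (11.8, 10.4 and 7.22) and a new coding summit at 4 h (2.72), while MSN2 had weak new upstream summits at 2 h (2.34) and 4 h (2.04). Of the 8 subunit genes of the cytosolic chaperonin in this list, CCT4, CCT6 and CCT8 had new coding summits at 2 h. TCP1 and CCT7 joined them at 4 h, with CCT8 the highest (4.97). Of all genes, 17.5% had a new coding summit at 2 h and 34.2% at 4 h. Among all genes of 1500 bp or more these shares were 27.2% and 50.1%.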

How the data were processed

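Rap1 ChIP-seq peak lists of strain UKY403 were used, 1 per time point, from 6 samples. The submitters' processing notes name Bowtie, SAMtools and MACS2, with sacCer3 as the build. Per the file headers, MACS2 2.0.10.20130712 called the peaks without a control library, at a q cutoff of 0.05, keeping 1 tag per position and strand. Neither labels nor headers state whether a list's alignment file pools both replicates. The deposited summit height is the signal of tags extended to 146 bp, unscaled, and the deposited fold enrichment is a ratio of that height to the local background, per the file headers. The -log10 q of each peak was given by the authors' caller. Of all tags, 40.4, 30.6 and 37.8% were kept in the 0, 2 and 4 h lists. The numbers kept were 983197, 1483679 and 2327099, so the lists differ in how weak a peak they can hold. Regions that fragment or map unevenly were not corrected for.

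Summits were assigned to coding spans (introns included) and to 1000 bp before each start with the RefSeq R64 gene table, with strands read from systematic names. The 34 genes and the list of 35 others were chosen with earlier results of these data known, so no set test was run. Every gene of the 34 with a summit was named with its values, and those without were named alone. Local background was recovered from height and fold. The assignment was tested on simulated summits, and pandas 2.3.3 and SciPy 1.17.1 were used. Alternatives covered windows, cutoffs, overlap rules, list lengths, depth and, chosen after seeing the data, coding length.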

Additional observations from a re-analysis of the deposited data

How the results depend on the processing

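No paired analysis was possible because each list gives 1 value per time point and no replicate values; for the same reason no replicate could be left out. Counts of genes with a coding, new coding or upstream summit stayed within 1.5 times their value under -log10 q of at least 5, any overlap of the interval, scaling by kept tags, summits 200 bp inside both ends, the other rule for new peaks, the 500 bp window and upstream summits outside other coding spans. Scaling by kept tags left 15 genes with a coding summit at 2 h and 18 at 4 h, against 20.0% and 32.5% of all genes. With the lists cut to the 1212 peaks of highest -log10 q, coding summits fell to 4 genes at 2 h and 5 at 4 h (9.46% and 11.0% of all genes), new coding peaks to 2 and 2 (5.88% of the 34 at both times, against 6.30% and 8.03% of all genes), and upstream summits to 9 and 10 (17.4% and 15.7%). With fold enrichment of at least 3, coding summits fell to 5 and 13 genes and new coding peaks to 3 and 11 (8.93% and 17.8% of all genes). Among genes of 1500 bp or more, 14 had a coding summit and 12 a new coding peak at 4 h, because only 21 of the 34 are that long.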

Other observations

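The local background, recovered from the height and fold enrichment of each peak, was raised over the genome-wide level of its list at a few of the 34 genes. At the central HSP104 site it was 1.30, 1.65 and 1.76 times that level at 0, 2 and 4 h, and at the HSP78 upstream site 1.70, 1.56 and 1.45 times. The median over all coding peaks of the 34 genes was 1.05 at 2 h and 1.06 at 4 h. The part of the background in these fold enrichments was not tested.

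Each coding span of the 34 genes was divided into 3 equal parts. At 4 h the first part held 13 summits, the middle 10 and the last 11, and at 2 h the numbers were 3, 9 and 6. The first part thus held 16.7% of the coding summits at 2 h and 38.2% at 4 h. Over all genes it held 34.2% and 34.8%. HSP31, a chaperone of the DJ-1 family outside the 34 genes, had a coding summit 86 to 90 bp after its start at all times, with fold enrichments of 3.51, 7.44 and 7.81.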
